A study of Mus musculus with 6 samples.

Results

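The late-numbered miRNAs of miRBase, those with a number of 1000 or more, were followed in small extracellular vesicles (sEV) released by mouse cochlear explants. They were taken from the deposited read counts by name and number, leaving out miR-1193, miR-1197, miR-3070, miR-3071 and miR-3072, which belong to the imprinted Dlk1-Dio3 cluster. They made up 180 of 810 rows, beside 489 rows of other miRBase miRNAs and 141 of miRNAs predicted from the reads. By number, 31 lay between 1000 and 2000, 47 from 2000 up to 5000, and 102 at 5000 and over. The explants were cochlear sensory epithelium of ICR mice at postnatal day 3, freed of the spiral ganglion and cultured in medium with sEV-free serum. The Cis-sEV group came from explants given 50 µM cisplatin for 48 h, and the Ctrl-sEV group from explants given an equal volume of PBS, with 3 biological replicates in each. Each library held the sEV of about 80 pooled explants, so it averages over many animals and over every cell type of the explant. The question of the design was how the miRNA cargo of sEV differs when the explant has been damaged by cisplatin.

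Most miRNA hairpins are cut from a longer transcript by Drosha with its partner Dgcr8, cut again by Dicer, and loaded into Argonaute, where bases 2 to 8 of the mature strand (the seed) pair with target mRNAs. Mirtrons are an exception: the hairpin is a short spliced intron, or the tail of a longer one, so splicing takes the place of Drosha and the 3p arm ends at the splice site. Other hairpins lie inside small nucleolar RNAs (snoRNA, guides of ribosomal RNA modification), small Cajal body RNAs (scaRNA, guides of spliceosomal RNA modification) or tRNAs. Numbers in miRBase follow the order of submission, so the late ones are mostly scarce or species-restricted miRNAs first found by deep sequencing.

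On GRCm38.p6, the mature sequence of 16 of the 180, or the hairpin where that was not mapped, overlapped an annotated snoRNA, scaRNA or tRNA. These are called below hairpins that overlap another small RNA. For miR-1839, miR-1949, miR-3068 and miR-3535, however, that annotation bears the gene name of the hairpin itself. The hairpin of 81 ended within 5 bases of the 3′ end of an intron on the same strand, the position of a mirtron. Another 81 lay elsewhere, and 2 had no position in the annotations. For 157 of the 180, RefSeq (GRCm38.p6) holds a mature sequence under the same name, and each was equal to the deposited one.

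The first set of sequences is from hairpins that overlap another small RNA, and holds 6 of the 10 late-numbered miRNAs called higher in Cis-sEV. Capitals mark the seed.
mmu-miR-1839-5p: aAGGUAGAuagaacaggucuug
mmu-miR-1843a-5p: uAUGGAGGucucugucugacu
mmu-miR-1843b-5p: aUGGAGGUcucugucugacuu
mmu-miR-1843a-3p: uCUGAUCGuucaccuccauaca
mmu-miR-1843b-3p: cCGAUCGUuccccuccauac
mmu-miR-3084-5p: gUUGAAGGuuaauuagcagagu
mmu-miR-3535: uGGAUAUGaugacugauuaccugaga
mmu-miR-1983: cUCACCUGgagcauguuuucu
mmu-miR-3068-5p: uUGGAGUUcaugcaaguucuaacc
The 5p arms of miR-1843a and miR-1843b share a run of 20 bases that starts at base 2 of the first and base 1 of the second, so their seeds differ by a shift of 1 base. Their 3p arms share no run longer than 9 bases, and differ at 2 of 20 aligned bases. Reads of the 5p arms could therefore be divided between both hairpins by the counting, and the values of these arms are uncertain to that extent.

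The second set shows the mirtron position. Capitals mark the seed and, where present, the final AG, which is the AG of the splice site wherever the arm ends on the last base of the intron.
mmu-miR-1981-5p: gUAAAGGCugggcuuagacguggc
mmu-miR-1981-3p: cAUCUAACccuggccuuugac
mmu-miR-6944-3p: uAACUCUUcccuugugcccucAG
mmu-miR-1982-3p: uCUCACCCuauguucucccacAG
mmu-miR-1224-3p: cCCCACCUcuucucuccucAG
mmu-miR-7019-3p: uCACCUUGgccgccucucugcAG
The 3p arm of miR-1981 ends 2 bases before the end of its intron and carries no AG, whereas those of miR-6944, miR-1982 and miR-1224 end on its last base.

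The third set comes from neither kind of hairpin and holds the other miRNAs on which the comparisons turn, with seeds in capitals.
mmu-miR-1198-5p: uAUGUGUUccuggcuggcuugg
mmu-miR-1947-5p: aGGACGAGcuagcugagugcug
mmu-miR-5099: uUAGAUCGauguggugcucc
mmu-miR-6715-5p: aCAGGCACcacagguuugagcau
mmu-miR-6715-3p: cCAAACCAggcgugccugugg
mmu-miR-6538: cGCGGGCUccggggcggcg
mmu-miR-8112: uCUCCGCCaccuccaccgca
mmu-miR-3470a: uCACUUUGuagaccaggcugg
mmu-miR-3470b: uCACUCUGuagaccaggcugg
Counted from the 5′ end of miR-3470a, the last pair differ by the single substitution U6C, which lies in the seed.

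The miRNA total of a library was 1722359 to 1794175 reads for Cis-sEV, and 528952 to 718597 reads for Ctrl-sEV. Levels are given in CPM (counts per 1000000 miRNA reads), and 3 reads, the limit that a count of 0 allows, came to 1.67 to 1.74 CPM for Cis-sEV and to 4.17 to 5.67 CPM for Ctrl-sEV. Reads amplified from one molecule were not told apart, so limits and intervals cover counting error only. The hair cell miRNAs miR-183-5p, miR-96-5p and miR-182-5p summed to 59073 to 81525 CPM in Cis-sEV and 54984 to 55757 CPM in Ctrl-sEV, with fitted log2 fold changes of -0.49, 2.08 and 0.18. The 4 red blood cell miRNAs with a row summed to 1158 to 1337 against 1639 to 3604 CPM, and the 2 neuronal miRNAs to 1593 to 1677 against 937 to 1376 CPM. Of the neuronal pair, miR-9-5p had a log2 fold change of 0.15 and was not called. With 0 reads in Ctrl-sEV, miR-124-3p was called higher (log2 fold change 8.54). The endothelial arms of miR-126a, 6915 to 9947 against 14595 to 18602 CPM in sum, went opposite ways, with means of 8606 against 16369 CPM for miR-126a-3p (log2 fold change -1.28, called lower) and 43.0 against 1.89 CPM for miR-126a-5p (log2 fold change 4.17, not called). The muscle miRNAs reached 47.4 to 62.4 CPM in Cis-sEV and at most 2.78 CPM in Ctrl-sEV, and the white blood cell miRNA miR-223-3p lay at 1.67 to 16.3 against 0 to 5.57 CPM, with overlap, while miR-133a-3p, miR-144-5p and both arms of miR-142a had no row. Apart from the white blood cell list, the sums did not overlap between the groups in CPM of total miRNA reads. With the scaling factors (TMM) of the test below, the hair cell and neuronal sums would overlap. The part of these markers in the results below was not tested. In a bulk library, fewer cells of a type cannot be told apart from less RNA per cell.

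Late-numbered miRNAs were scarce in these vesicles. Of the miRNA reads they took 0.609, 0.580 and 0.591% for Cis-sEV, but 0.352, 0.345 and 0.341% for Ctrl-sEV. The median was 12.5 reads over the 6 libraries together, against 197 for other miRBase miRNAs and 18 for predicted ones. By number it was 72 reads below 2000, 12 from 2000 up to 5000, and 11 at 5000 and over. By position it was 102 reads for hairpins that overlap another small RNA, 10 for those at an intron end and 17 for the rest. A mean above 100 CPM over the 6 libraries was reached by 4 of the 180, namely miR-1839-5p, miR-1983, miR-1198-5p and miR-3068-5p, and these 4 held 77.3% of all late-numbered reads. All 4 have a number below 5000, and none of their hairpins ends at an intron end, so the 102 numbered 5000 and over added little to the sum.

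Detection, taken as at least 1 read, was in every library highest among the miRNAs numbered below 2000. Of the 180, replicates 1 to 3 of Cis-sEV held 99, 103 and 94, and those of Ctrl-sEV 17, 16 and 22. In percent this was 52.2 to 57.2 for Cis-sEV, but 8.89 to 12.2 for Ctrl-sEV, against 82.6 to 86.1 and 43.1 to 51.1 for other miRBase miRNAs. Below 2000, the Cis-sEV libraries held 25, 20 and 25 of the 31 and the Ctrl-sEV libraries 6, 6 and 10. Among the 102 numbered 5000 and over, the counts were 53, 53 and 49 against 6, 6 and 8. The 47 in between showed 21, 30 and 20 in Cis-sEV, with the most in replicate 2, against 5, 4 and 4. In each of the 3 ranges every Cis-sEV library detected more than every Ctrl-sEV library.

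**Figure D1:**
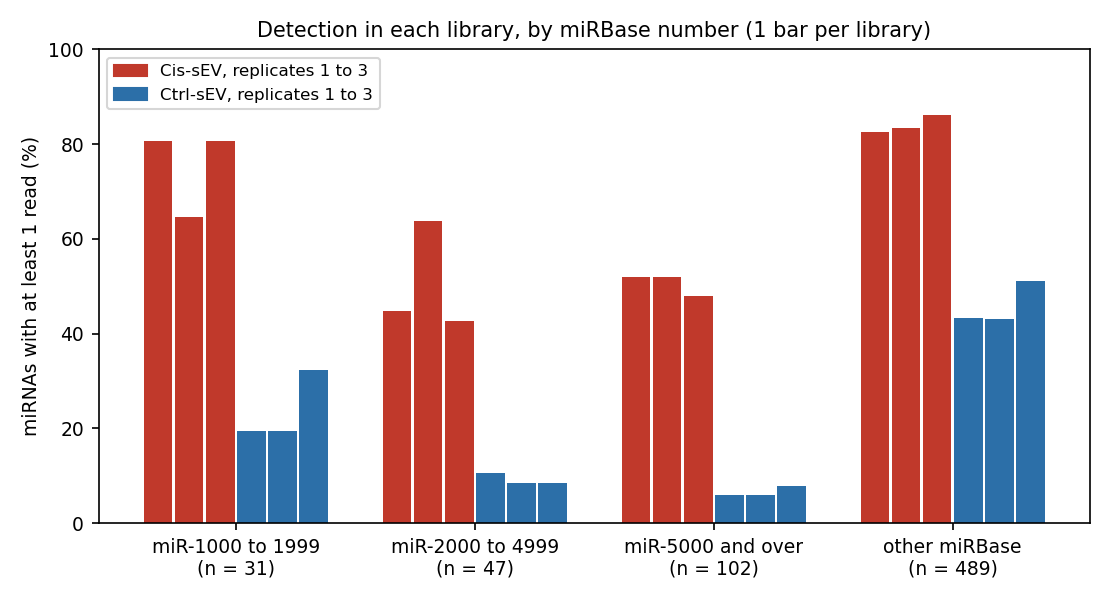
Percent of miRNAs with at least 1 read in each of the 6 libraries (vertical axis), for 3 ranges of miRBase number and for the other miRBase miRNAs, with 1 bar per library. Detection of miRNAs numbered 5000 and over was 48.0 to 52.0% for Cis-sEV and 5.88 to 7.84% for Ctrl-sEV, below the other miRBase miRNAs in both groups.

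Over the groups, 179 of the 180 had a read in Cis-sEV and 35 in Ctrl-sEV, with 34 in both. With every library thinned to the total of the shallowest, the expected numbers were 163 in Cis-sEV and 34.7 in Ctrl-sEV. Reads only in Cis-sEV were found for 145 (80.6%), against 182 of 489 other miRBase miRNAs (37.2%). By number this share was 58.1% below 2000, 80.9% from 2000 up to 5000 and 87.3% at 5000 and over. Scarce miRNAs of any number were seldom seen in Ctrl-sEV. Among miRNAs with 1 to 9 reads over the Cis-sEV libraries, 88.6% of late-numbered and 84.4% of other miRBase miRNAs had none in Ctrl-sEV. The shares were 88.9 and 78.4% at 10 to 29 reads and 76.0 and 48.5% at 30 to 99 reads. From 100 up to 1000 reads, 8 of 17 late-numbered miRNAs (47.1%) and 34 of 136 others (25.0%) had none. The late-numbered share was the higher one in these 4 bins, and none of the 4 late-numbered miRNAs above them was missing from Ctrl-sEV. These shares are descriptions and were not tested.

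**Figure D2:**
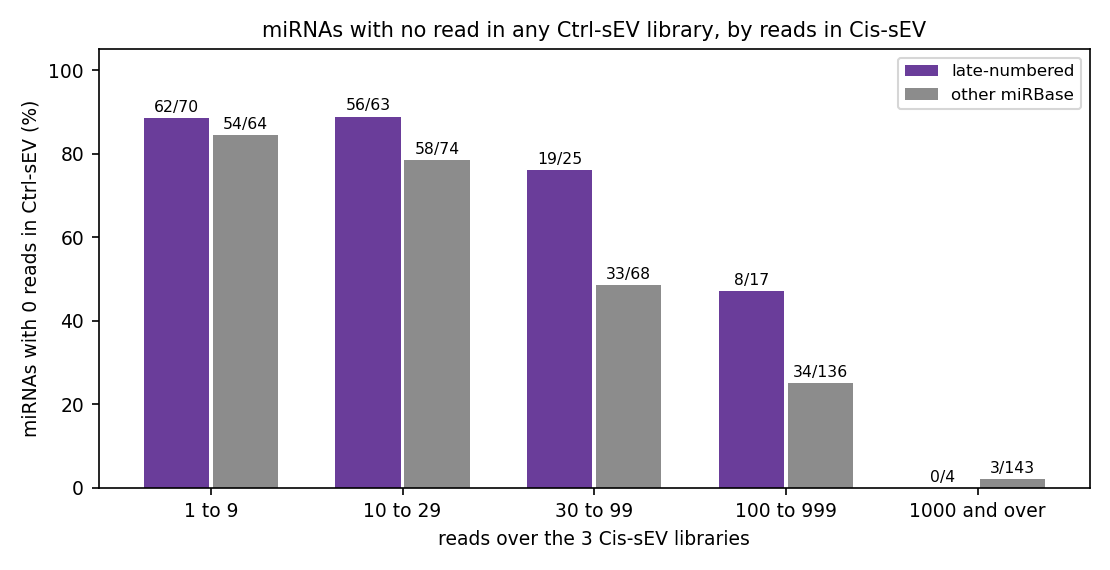
Percent of miRNAs with 0 reads in all 3 Ctrl-sEV libraries (vertical axis), in bins of their reads over the 3 Cis-sEV libraries, with the number missing and the number in the bin above each bar. At 30 to 99 reads, 19 of 25 late-numbered and 33 of 68 other miRBase miRNAs had no Ctrl-sEV read.

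Detection was patchy within the groups as well. Of the 180, 97 (53.9%) were seen in a single library, 35 in 2 libraries, 41 in all 3 Cis-sEV libraries and 6 in all 6, whereas 15.3% of other miRBase miRNAs were seen in 1 library only. The miRNAs of a single library had a median of 8 reads and at most 72. In Ctrl-sEV, 21 of the 35 late-numbered miRNAs with a read had it in 1 library only, 7 in replicate 1, 5 in replicate 2 and 9 in replicate 3. Of the 55 values above 0 in Ctrl-sEV, 13 were of 1 or 2 reads, 1 of 3 to 13 reads and 41 of 14 reads or more. The 296 such values in Cis-sEV were spread as 30, 133 and 133. The same was seen over all rows, where 11 to 20 rows of a Ctrl-sEV library had 9 to 31 reads and 199 to 210 had 32 or more, against 159 to 166 and 302 to 319 for a Cis-sEV library. The gap at low counts was thus not particular to late-numbered miRNAs. Over the 353 rows tested below, edgeR put the biological coefficient of variation at 0.370 for Cis-sEV and 1.58 for Ctrl-sEV.

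Reads held almost wholly by 1 Ctrl-sEV replicate were also found among the rows left out of the test, which asked for enough reads in at least 3 libraries. The pair miR-3470a and miR-3470b, whose sequence is that of the B1 short interspersed repeat, had 177 reads each in Ctrl-sEV replicate 1. In the order of replicates 1 to 3, miR-3470a had 14, 0 and 0 reads in Cis-sEV and 177, 0 and 0 in Ctrl-sEV. Its partner miR-3470b had 0, 0 and 1 reads in Cis-sEV and 177, 0 and 1 in Ctrl-sEV. With 20 of 21 bases in common, the same reads may have been counted on both, which the counts cannot settle. Only 1 late-numbered miRNA was seen in Ctrl-sEV alone, miR-1968-5p from an intron of Grtp1, with 72 reads in replicate 2 and 0 in the other 5 libraries.

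The levels of the groups were compared with edgeR's quasi-likelihood test fitted on all rows, with TMM factors for scaling. A miRNA was called at a Benjamini-Hochberg adjusted p of at most 0.05 and a log2 fold change of at least 1 in either direction. Enough reads for the test, in at least 3 libraries, were held by 353 rows, of which 83 (23.5%) were called higher and 23 (6.52%) lower in Cis-sEV. Of the 180 late-numbered miRNAs 26 were tested (14.4%, against 61.3% of other miRBase miRNAs), 10 were called higher and 0 lower, and 11 had an unadjusted p under 0.05, all of them higher in Cis-sEV. DESeq2 tested 51 and called 10 higher and 0 lower (all rows, 86 higher and 23 lower of 454). The 26 were 15 numbered below 2000, 3 from 2000 up to 5000 and 8 at 5000 and over, with 6, 2 and 2 called. Of the 10 called, 9 had reads in every Cis-sEV library and none in Ctrl-sEV, the exception being miR-1839-5p. Such a miRNA passes the minimum for the test through Cis-sEV alone. Each of the 53 tested rows with 0 reads in Ctrl-sEV was called (100%), the 9 late-numbered ones among them. Of the 300 tested rows with a Ctrl-sEV read 30 were called higher (10%), and of the 17 late-numbered ones 1. The count of 10 is thus close to the count of tested late-numbered miRNAs without a Ctrl-sEV read. Since every tested row in that state was called, the adjusted p values given below for these 9 miRNAs add no support to their counts.

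The count also moved with single libraries. It was 5 without Cis-sEV replicate 1, 16 without Ctrl-sEV replicate 1 and 21 without Ctrl-sEV replicate 3, and between 7 and 11 without any of the other 3. The set tested changed as well, to 47 to 49 late-numbered miRNAs without a Ctrl-sEV library and 23 to 26 without a Cis-sEV library. The minimum for the test was set anew in each fit, with fewer libraries asked for. Its limit in CPM follows median depth, so it fell without a Ctrl-sEV library and rose without a Cis-sEV library. Counts of these fits, and miRNAs said below not to pass in them, reflect this moving limit as well as the library left out. Over all rows, 40 of 341 were called higher without Cis-sEV replicate 1. The same count was 104 of 439 without Ctrl-sEV replicate 1 and 144 of 441 without Ctrl-sEV replicate 3. A miRNA whose Ctrl-sEV reads all lie in the library left out has 0 Ctrl-sEV reads in that fit. With limma-voom the number of late-numbered miRNAs called was 1, namely miR-1843b-3p (all rows, 30 of 353 called higher). Over all 180, every Cis-sEV library lay above every Ctrl-sEV library in CPM for 23 (all rows, 26.5%) and below for 0 (all rows, 4.32%). Among the 353 rows of the test, the median log2 fold change was 0.44 with TMM factors, 0.79 with no factor and 0.22 with upper-quartile factors, and single changes are to be read against it.

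**Figure D3:**
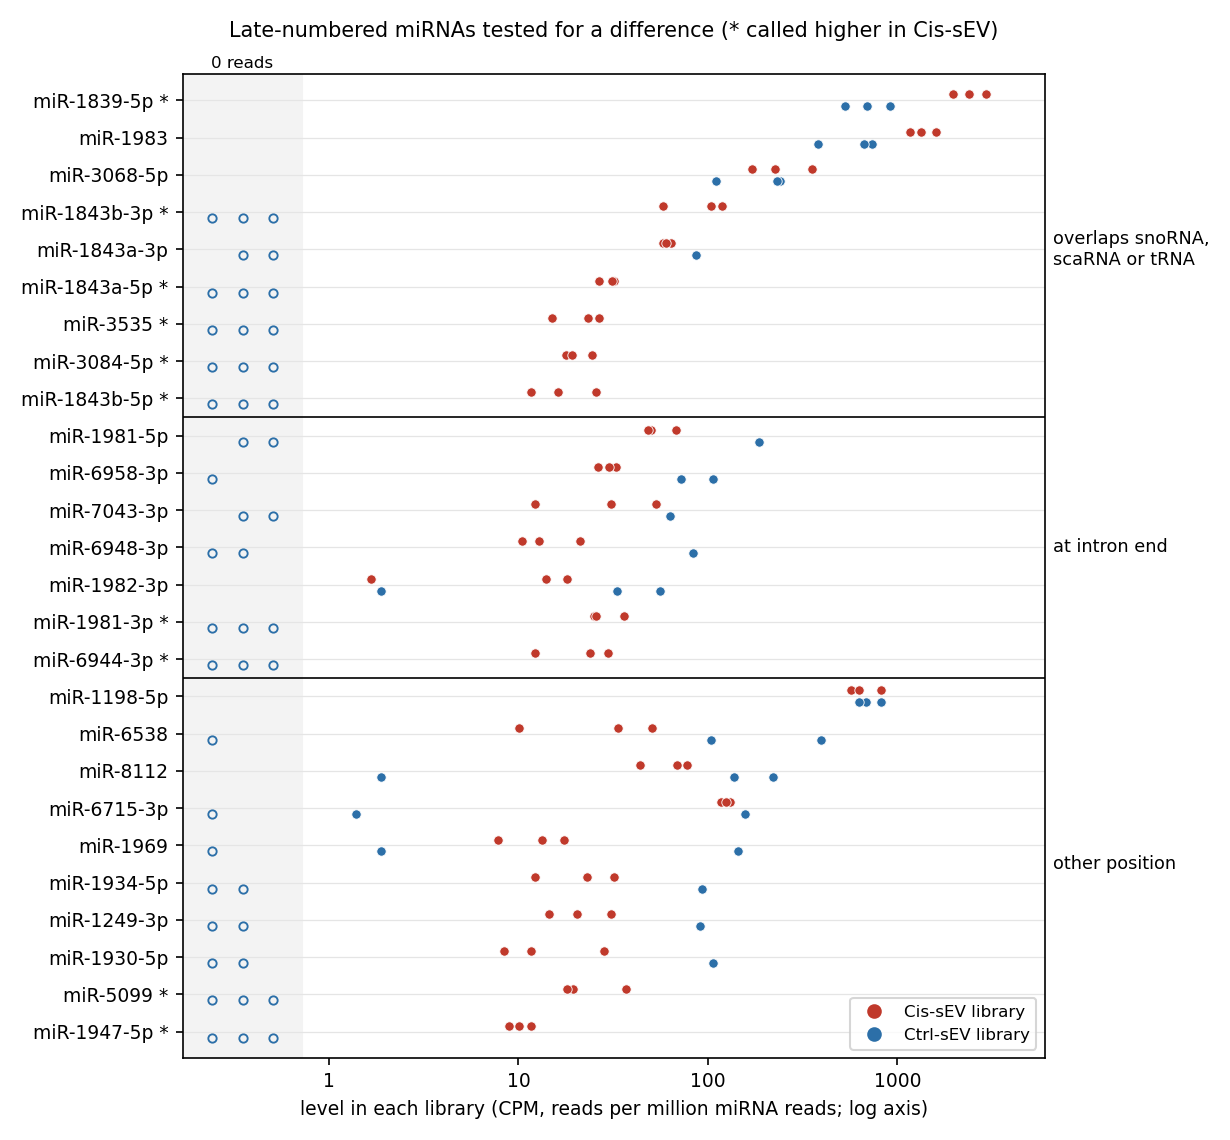
Level of the 26 tested late-numbered miRNAs in each library in CPM (horizontal log axis, with libraries at 0 reads drawn open in the grey band), grouped by the position of the hairpin, with an asterisk for the 10 called higher in Cis-sEV. For 9 of the 10 all 3 Ctrl-sEV libraries lie in the band, and several other miRNAs have 1 Ctrl-sEV library above all Cis-sEV libraries and the others at 0.

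Among hairpins that overlap a snoRNA, scaRNA or tRNA, 9 of 16 were tested and 6 called higher (all tested rows, 23.5%), 5 of them with 0 reads in Ctrl-sEV. Summed over the 16, the level was 4570, 4192 and 4167 CPM in Cis-sEV and 1406, 1759 and 1431 CPM in Ctrl-sEV, without overlap. The ratio of the means was 2.81, or 2.22 with TMM factors and 2.29 without miR-1839-5p, the most abundant of them.

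The most abundant late-numbered miRNA, miR-1839-5p, comes from a hairpin at chr7:81529916-81529988 (plus strand), in an exon of the long noncoding RNA 2900076A07Rik and overlapping a scaRNA annotation. It had 5273, 3389 and 4278 reads in Cis-sEV and 375, 657 and 280 in Ctrl-sEV. In CPM this was 2432 ± 490 (SD, n = 3) against 713 ± 193 (SD, n = 3), with every Cis-sEV library above every Ctrl-sEV library. The log2 fold change was 1.42 ± 0.28 (SE), with an adjusted p of 0.00944 by edgeR's quasi-likelihood test with Benjamini-Hochberg adjustment. Without Cis-sEV replicate 1 the adjusted p of the same edgeR test was 0.0733, and it was 0.0867 with DESeq2 and 0.0608 with limma-voom. Its other arm, miR-1839-3p, had 0, 19 and 17 reads in Cis-sEV and none in Ctrl-sEV, and was not tested, with reads in only 2 libraries.

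The miR-1843 pair comes from 2 scaRNAs, Scarna3b in an intron of Dcaf5 (miR-1843a, chr12:80391613-80391677, minus strand) and Scarna3a in an intron of Cop1 (miR-1843b, chr1:159340358-159340423, plus strand). Dcaf5 is a substrate receptor of a ubiquitin ligase and Cop1 a ubiquitin ligase. The strongest of the 4 arms, miR-1843b-3p, had 214, 178 and 104 reads in Cis-sEV and 0 in every Ctrl-sEV library. With 3 reads over the group in place of 0, it was at least 44.4-fold higher in Cis-sEV, with counting error alone considered. Its adjusted p was 0.0194 by edgeR's quasi-likelihood test with Benjamini-Hochberg adjustment. The same edgeR adjusted p rose to 0.0667 to 0.0721 when any 1 Cis-sEV library was left out. Its partner miR-1843b-5p had 29, 20 and 46 reads against 0 in every Ctrl-sEV library, which is at least 8.51-fold higher (adjusted p 0.0053 in the same edgeR test). It did not pass the minimum for the test without Cis-sEV replicate 1 or 3.
The hairpin of miR-1843a showed the same order of reads on one arm and not on the other. The 5p arm had 48, 55 and 56 reads in Cis-sEV against 0, a level at least 14.2-fold higher (adjusted p 0.00551, edgeR with Benjamini-Hochberg adjustment). The 3p arm had 115, 100 and 108 reads in Cis-sEV, and 47, 0 and 0 in Ctrl-sEV. The 47 reads came to 87.1 CPM, above the 58.1 to 64.2 CPM of the Cis-sEV libraries. This arm was not called (log2 fold change 0.51). Without Ctrl-sEV replicate 1, the library with its 47 reads, it was called with 0 Ctrl-sEV reads left. All 4 arms had reads in every Cis-sEV library, and 1 Ctrl-sEV library held the only control reads of the 4.

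The pair of snoRNA hairpins called higher were miR-3535, in Gm24148 within an intron of Ncl (nucleolin, a nucleolar protein of ribosome assembly), and miR-3084-5p, in Gm23658 within an intron of Cbwd1. The gene of miR-3535 lies at chr1:86351981-86352127, and the mature miRNA had 48, 40 and 27 reads in Cis-sEV and none in Ctrl-sEV. This was at least 10.3-fold higher (adjusted p 0.0053, edgeR with Benjamini-Hochberg adjustment). The sequence of miR-3084-5p is found at 2 loci, 1 of them chr19:24942235-24942303, and it had 32, 33 and 44 reads in Cis-sEV and none in Ctrl-sEV. It was at least 9.77-fold higher (adjusted p 0.00523, same edgeR test), and its 3p arm had 12 reads in Cis-sEV replicate 2 only. Both miR-3535 and miR-3084-5p were among the 53 tested rows with 0 reads in Ctrl-sEV, all of which were called.

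Next to these stood 2 abundant miRNAs of the same class that were not called. The hairpin of miR-1983, at chr13:21896918-21897049, overlaps the isoleucine tRNA gene n-TItat14, for which the reference used gives no strand. Its reads numbered 2099, 2754 and 2384 in Cis-sEV and 207, 528 and 354 in Ctrl-sEV, or 1366 ± 216 against 596 ± 187 CPM (SD, n = 3), without overlap. The log2 fold change was 0.88 ± 0.28 (SE) with an adjusted p of 0.0472 by edgeR's quasi-likelihood test with Benjamini-Hochberg adjustment, below the limit on the fold change. With total reads in place of TMM it was 1.20 (adjusted p 0.0295 in edgeR) and would be called, and with 1 library left out the adjusted p was 0.0656 to 0.352. The hairpin of miR-3068, typed as a snoRNA in GENCODE and lying in an intron of Alkbh1, gave miR-3068-5p with 305, 610 and 405 reads in Cis-sEV and 130, 79 and 123 in Ctrl-sEV. In CPM the groups overlapped, and the log2 fold change was -0.03 ± 0.67 (SE). The remaining rows of this class, among them miR-1291 in Snora34 with 1 read in all, had between 1 and 36 reads over the 6 libraries.

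The mirtron position was the most common one, held by 81 rows from 71 hairpins, and by 66 of the 102 numbered 5000 and over. In 9 hairpins the whole intron was the hairpin, and in 62 the hairpin was the 3′ end of a longer intron. The introns were 73 to 36269 bases long, with a median of 272. Of the 54 3p arms with a mapped mature position, 43 ended exactly on the last base of the intron and 11 ended 1 to 3 bases before it. The 43 ended in CAG in 40 cases, in UAG in 2 and in AAG in 1, the forms of the splice acceptor. The AG ending was present in 49 of all 60 3p arms of the class and in 5.53% of other miRBase miRNAs. An arm that ends on the last base of an intron carries the AG of its splice site. The high share thus follows from how the class was set and is no separate result. The 3p arms took 1702 reads against 636 on the 21 5p arms, and both arms were in the table for 10 hairpins.

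**Figure D4:**
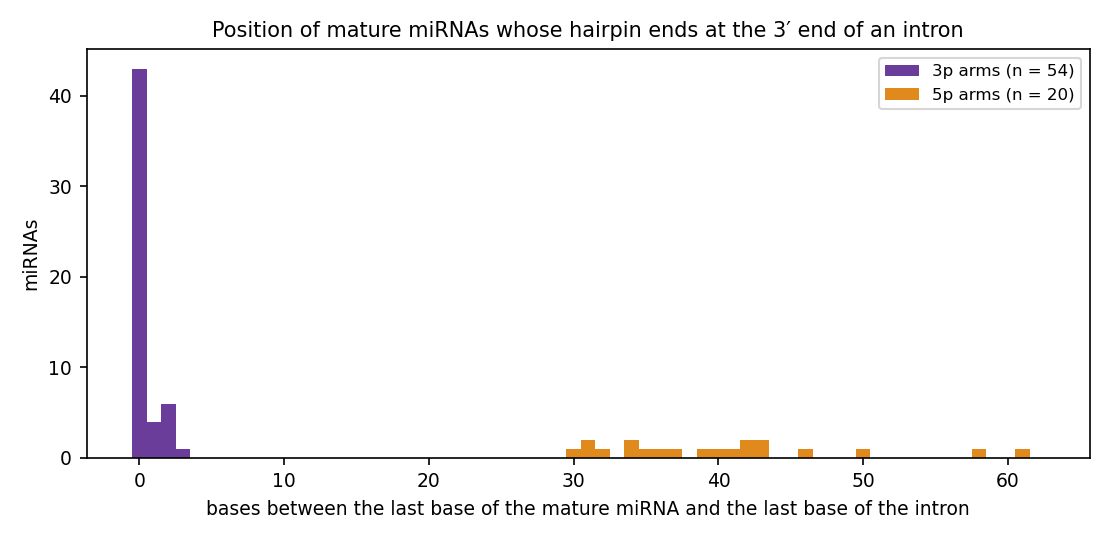
Number of mature miRNAs (vertical axis) by the number of bases between their last base and the last base of the host intron, for 54 3p and 20 5p arms of hairpins at the 3′ end of an intron. The bar at 0 holds 43 3p arms.

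Mirtron-positioned miRNAs had 1 to 396 reads over the 6 libraries, with a median of 10, and 7 exceeded 100. The Cis-sEV libraries held 40, 41 and 38 of the 81 and the Ctrl-sEV libraries 4, 3 and 4. Their summed level was 366, 365 and 380 CPM in Cis-sEV and 285, 161 and 193 CPM in Ctrl-sEV. The ratio of the means was 1.74, or 1.32 with TMM factors. The 2 groups did not overlap in CPM of total miRNA reads. With TMM factors (0.762 for Ctrl-sEV replicate 1, 1.10 to 1.18 for Cis-sEV), Ctrl-sEV replicate 1 would lie above every Cis-sEV library. Of the 81, 7 were tested and 2 called higher (all tested rows, 23.5%), both with 0 reads in Ctrl-sEV.

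The known mirtron miR-1981 is the whole 82-base intron of Marc2 (a mitochondrial amidoxime reductase) at chr1:184822407-184822488 on the minus strand. Its 3p arm had 65, 43 and 46 reads in Cis-sEV against 0, a level at least 13.8-fold higher (adjusted p 0.00551, edgeR's quasi-likelihood test with Benjamini-Hochberg adjustment). Its 5p arm was more abundant, with 90, 83 and 122 reads in Cis-sEV, and had 101, 0 and 0 in Ctrl-sEV. The 101 reads came to 187 CPM, above the 48.2 to 68.0 CPM of the Cis-sEV libraries. The 5p arm was not called (log2 fold change -0.74). Without Ctrl-sEV replicate 1 it was called higher, but no Ctrl-sEV read was then left, the state in which each of the 53 rows above was called. The same Ctrl-sEV library thus held 101 reads of one arm and none of the other. The second known mirtron on the list, miR-1224 in Vwa5b2, was represented by 4 reads of its 3p arm in Cis-sEV replicate 3.

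The other whole-intron miRNA called was miR-6944-3p, from a 96-base intron of Dbn1 (drebrin, an actin-binding protein) at chr13:55477681-55477776. It had 43, 51 and 22 reads in Cis-sEV and none in Ctrl-sEV, a level at least 10.4-fold higher (adjusted p 0.00562, edgeR with Benjamini-Hochberg adjustment). Without Cis-sEV replicate 1 or 2 it did not pass the minimum for the test. In contrast, miR-6958-3p, from a 73-base intron of Dennd6b, had 59, 52 and 47 reads in Cis-sEV and 0, 52 and 56 in Ctrl-sEV, and was not called. The 3p arm of miR-1982, from a 74-base intron of Oaz1 (ornithine decarboxylase antizyme, an inhibitor of polyamine synthesis), was the only mirtron-positioned miRNA with a read in all 6 libraries. It had 25, 31 and 3 reads in Cis-sEV and 18, 40 and 1 in Ctrl-sEV, with a log2 fold change of -1.74 that was not called. Its 5p arm had 11 reads in Cis-sEV replicate 3 only.

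Among miRNAs at the tail of a longer intron, miR-7043-3p of Rassf4 had 22, 53 and 95 reads in Cis-sEV and 34, 0 and 0 in Ctrl-sEV. For miR-6948-3p of Acin1 the counts were 23, 18 and 38 against 0, 0 and 44. Neither was called, and in each the only Ctrl-sEV library with reads reached a CPM above every Cis-sEV library. Below the minimum for the test, which asks for enough reads in 3 libraries, was miR-7019-3p of Pink1, a mitochondrial quality control kinase, with 78, 0 and 11 reads in Cis-sEV. The same held for miR-6939-3p of Akt1, a survival kinase, with 7, 13 and 19 reads in Cis-sEV, and both had none in Ctrl-sEV. The early-numbered mirtrons gave a comparison outside the late-numbered set. There, miR-877-3p had 37, 15 and 36 reads in Cis-sEV and 1, 0 and 0 in Ctrl-sEV and was called higher (log2 fold change 4.21, adjusted p 0.0266, edgeR with Benjamini-Hochberg adjustment). For miR-877-5p the reads were 41, 197 and 265 against 0, 0 and 94, and it was not called, while miR-702-3p had 13, 12 and 0 in Cis-sEV and none in Ctrl-sEV.

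The 81 miRNAs at other positions were lower in sum in Cis-sEV. Their level was 1151, 1236 and 1364 CPM in Cis-sEV and 1827, 1528 and 1785 CPM in Ctrl-sEV, a ratio of 0.73, or 0.56 with TMM factors. The summed levels of the groups did not overlap, in the opposite order from the other classes. This rested on miR-3470a and miR-3470b, whose reads lay almost wholly in Ctrl-sEV replicate 1 and may be the same reads counted on both. Without both, the sum of that library would lie within the Cis-sEV range. Of the 81, 10 were tested, and 2 were called higher (all tested rows, 23.5%) and 0 lower, both with 0 reads in Ctrl-sEV. The lower sum was thus carried by no miRNA that passed the test.

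**Figure D5:**
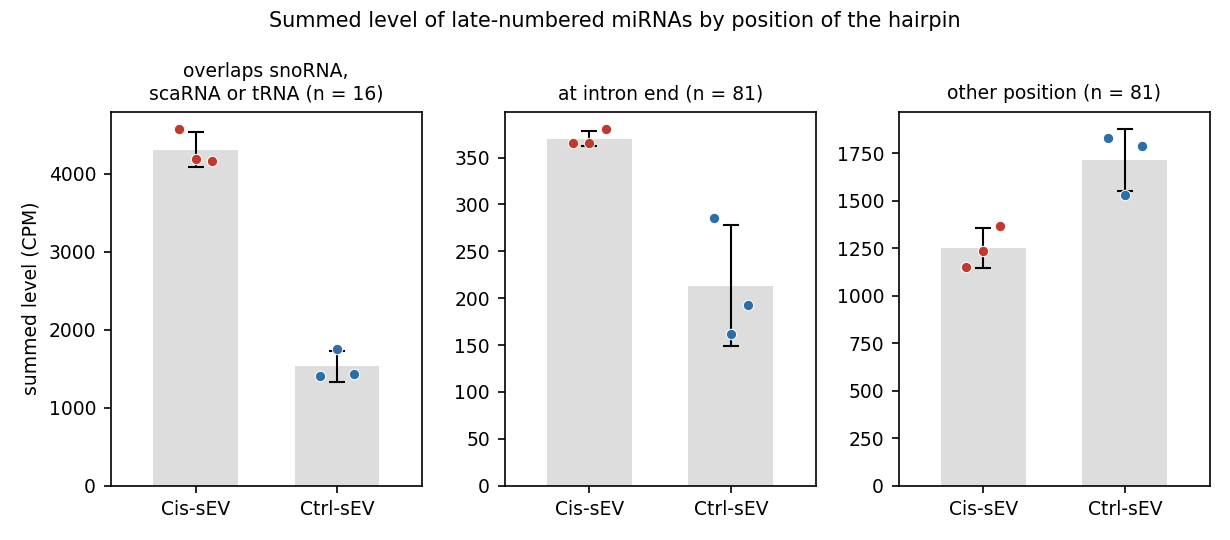
Summed level of late-numbered miRNAs in CPM (vertical axes, each from 0 and each with its own scale) in the 3 Cis-sEV and 3 Ctrl-sEV libraries, for hairpins that overlap another small RNA, hairpins at an intron end and hairpins elsewhere. Points are libraries, bars are means and error bars are SD (n = 3). The Cis-sEV mean was 4310 against 1532 CPM, 370 against 213 CPM and 1250.5 against 1713 CPM.

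The largest of these was miR-1198-5p, from an intron of Gripap1 at chrX:7807101-7807221, with 1026, 1088 and 1472 reads in Cis-sEV and 371, 592 and 332 in Ctrl-sEV. Its level was 675 ± 129 against 713 ± 101 CPM (SD, n = 3), and the groups overlapped. The log2 fold change was -0.43 ± 0.29 (SE) with an adjusted p of 0.346 by edgeR's quasi-likelihood test with Benjamini-Hochberg adjustment. It was the third most abundant late-numbered miRNA.

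Called higher here were miR-5099 and miR-1947-5p. Reads of miR-5099, from an intergenic hairpin at chr12:36816205-36816278, numbered 35, 31 and 66 in Cis-sEV against 0, which is at least 11.8-fold higher. Reads of miR-1947-5p, from an intron of Lmln (a metallopeptidase) at chr16:33105361-33105445, numbered 16, 20 and 18 in Cis-sEV against 0, which is at least 4.84-fold higher. Its adjusted p was 0.00502 by edgeR's quasi-likelihood test with Benjamini-Hochberg adjustment and 0.0545 by DESeq2, and without any 1 Cis-sEV library it did not pass the minimum for the test. These bounds, and those of the other 7 called miRNAs without a Ctrl-sEV read, fall 1.80-fold if Ctrl-sEV replicate 2, the deepest of its group, is left out, and rise 1.25-fold with total reads in place of TMM.

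The hairpin of miR-6715 lies in an exon of one annotated transcript of Tectb and in an intron of another. The gene encodes beta-tectorin of the tectorial membrane over the hair cells, and the hairpin lies at chr19:55192678-55192734. Its 3p arm had 234, 201 and 224 reads in Cis-sEV and 0, 1 and 83 in Ctrl-sEV. In CPM this was 124 ± 7.00 against 52.8 ± 90.2 (SD, n = 3), steady in Cis-sEV and held almost wholly by replicate 3 in Ctrl-sEV, where the value exceeded those of Cis-sEV. The log2 fold change was 0.93 ± 1.95 (SE), not called (adjusted p 0.806, edgeR with Benjamini-Hochberg adjustment). Without Ctrl-sEV replicate 3 it was called (adjusted p 0.0179 in edgeR), on the 1 Ctrl-sEV read that was then left. The 5p arm had 77, 36 and 0 reads in Cis-sEV and none in Ctrl-sEV.

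A split among Ctrl-sEV libraries recurred in 2 abundant miRNAs with negative fitted changes. For miR-6538, from an intron of Rnf144a, the reads were 18, 58 and 91 in Cis-sEV and 0, 75 and 209 in Ctrl-sEV (log2 fold change -2.69 ± 1.88, SE, not called). For miR-8112, partly in an exon of Krcc1, they were 79, 118 and 140 against 119, 99 and 1 (log2 fold change -1.35, not called). In both the Ctrl-sEV values spanned the range of the Cis-sEV values, and the low Ctrl-sEV library was a different one. The same held for miR-1249-3p, with 55, 35 and 26 reads in Cis-sEV and 0, 0 and 48 in Ctrl-sEV, and for miR-1969, with 14, 30 and 24 against 0, 104 and 1. The fitted log2 fold change of miR-1249-3p, -0.76, turned positive without Ctrl-sEV replicate 3, when no Ctrl-sEV read was left, and those of miR-8112, miR-1249-3p and miR-1969 turned positive with limma-voom.

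Of 12 late-numbered miRNAs listed as conserved in other mammals, 11 had a row, with 14 rows in all, of which 6 were tested, 3 called higher (all tested rows, 23.5%) and 0 lower (6.52%). The 3 called were the arms of miR-1843 with 0 reads in Ctrl-sEV. Some conserved hairpins lie opposite well-known ones. The hairpin of miR-3065 lies on the strand opposite Mir338 and its 3p arm had 23, 20 and 5 reads in Cis-sEV and 0, 1 and 0 in Ctrl-sEV, a ratio of 12.9 with a 95% Clopper-Pearson interval of 2.21 to 520. The hairpin of miR-3074-2 lies opposite Mir24-2, and its 3p arm had 11, 60 and 16 reads in Cis-sEV and none in Ctrl-sEV, a level at least 7.80-fold higher but below the minimum for the test. Its relative miR-3074-5p, which is encoded at 2 loci, opposite Mir24-1 and Mir24-2, had 21, 14 and 0 reads in Cis-sEV and none in Ctrl-sEV.
The transcript of Dgcr8, the partner of Drosha, carries miR-1306 in an exon, and miR-1306-3p had 0, 9 and 39 reads in Cis-sEV and none in Ctrl-sEV. From an intron of Rmst, a long noncoding RNA of neural tissue, miR-1251-5p had 1, 12 and 21 reads in Cis-sEV and none in Ctrl-sEV. The remaining conserved rows were near the limit of detection, with 7, 0 and 1 against 0, 0 and 1 reads for miR-1247-5p of Dio3os and 7 reads in Cis-sEV replicate 2 for miR-3085-3p. None of the 4 late-numbered miRNAs known from introns of the serotonin receptor gene Htr2c had a row. Of 13 miRNAs listed for lying in snoRNA, tRNA or rRNA sequence, 5 had a row, with 6 rows in all. Of these 3 were tested, 2 called higher (all tested rows, 23.5%) and 0 lower (6.52%). The 2 were miR-1839-5p and miR-5099, the latter with 0 reads in Ctrl-sEV, a state in which all 53 tested rows were called. The annotations used here place miR-5099 outside such RNAs, and it is counted above with the other positions. Of the same list, miR-2137 had 1 read in each group.

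By sequence, the late-numbered miRNAs began with U in 52.2% of cases, against 39.8% of other miRBase miRNAs, and had a median GC content of 54.5 against 45.5%. An AG ending was found in 32.8% of them. The share with AG was 12.9% below 2000, 19.1% from 2000 up to 5000 and 45.1% at 5000 and over, and 97 of the 180 were 3p arms. They held 176 distinct seeds. Only 3 seeds were shared among late-numbered miRNAs, by 7 of them in all, and 6 shared a seed with another miRBase miRNA in the table, among them miR-1983 with miR-412-3p and miR-7002-3p with miR-218-5p. A few late-numbered rows are near copies of far more abundant miRNAs. The 1 read of miR-3962 matched a sequence that differs at 1 of 20 aligned bases from let-7g-5p, which had 169156 reads, and miR-3965, with 12 reads, differs at 2 of 19 from miR-21a-5p, which had 5513. Reads of such rows cannot be told apart from misread copies of the abundant miRNA, and their counts are uncertain.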

How the data were processed

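Small RNA of sEV was sequenced on the DNBSEQ platform in 6 libraries, 3 in each group, as the labels name them. Per the labels and the study's methods, the authors selected RNA of miRNA length, filtered the reads, aligned them to GRCm38.p6 with Bowtie2 (version not given in the sources used here) and deposited raw counts per mature miRNA, with no normalization. The deposited columns of group averages, a signal made from those counts, were not used, and 0 count columns were left out. The members and lists were chosen with earlier results of these data known.

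Counts were tested with edgeR 4.0.16 (R 4.3.3) after filterByExpr (default minimum of 10 reads, scaled by depth, in at least 3 libraries, and 15 in total), in place of the study's MA-plot method. DESeq2 1.42.0, limma 3.58.1, other scalings and filters, summed identical sequences, a replicate block and each library left out were alternatives. With a library left out, the filter was run anew on the libraries that remained and asked for fewer of them. A group at 0 reads was set to 3 reads over the group, on the TMM scale, to bound a fold for counting error only. In simulated counts with 200 changed rows, edgeR found 200, and made 2 false calls over 434 rows tested. The simulated spread was the same in both groups and below that of either, and only the more abundant rows were changed. These numbers therefore give no error rate for scarce rows or at the spread of Ctrl-sEV (biological coefficient of variation 1.58). The miRNAs named were those called, the 12 with the highest mean CPM, those with reads in every library or in Ctrl-sEV alone, their other arms and the lists. Chosen after their values were seen were miR-1930-5p, miR-1934-5p, miR-1969, miR-6939-3p, miR-6948-3p, miR-6958-3p, miR-7019-3p, miR-7043-3p and those named for a near copy or shared seed. Hairpin positions came from RefSeq (GRCm38.p6) and GENCODE M21. The proteomics and RT-qPCR of the study were not analysed here.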

Additional observations from a re-analysis of the deposited data

How the results depend on the processing

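The number of late-numbered miRNAs called higher in Cis-sEV was 10. It was 9 to 11 under the other scalings, filters and fold limit and with DESeq2, but 1 with limma-voom. Over all rows, 83 of 353 were called higher in the main fit, 62 to 97 under those settings and 30 of 353 with limma-voom. With 1 library left out, 5 to 21 late-numbered miRNAs were called, of 23 to 49 tested. Over all rows these fits called 40 to 144, of 341 to 442 tested. The number of late-numbered miRNAs called lower was 0 under every setting run, against 11 to 30 over all rows. With the replicate number as a block, the number called higher was 1 (miR-1839-5p, edgeR adjusted p 0.0481), while the other 9 had an edgeR adjusted p of 0.161. Over all rows, 13 of 353 were called higher with the block. Libraries with the same number had correlations of -0.05, -0.18 and -0.02, and other pairs across the groups -0.12 to 0.16. With 3 libraries in a group, these values cannot settle whether the numbers pair the samples. Why the block lowered the count was not tested. A stricter minimum moved detection: with 10 reads over the group, 109 were detected in Cis-sEV and 86 in Cis-sEV only, and if all 3 libraries had to hold a read, 41 for Cis-sEV, 6 for Ctrl-sEV and 35 for Cis-sEV only. The ratio of summed levels, 1.72, was 1.34 with TMM factors and 1.28 with DESeq2 size factors, and 1.28 without miR-1839-5p. Of 429 log2 fold changes of the 26 tested miRNAs under the alternatives, 367 kept their direction and call, 25 lost the call, 4 gained it and 33, of 10 miRNAs, changed sign, 28 of them called neither before nor after. With limma-voom 9 changed sign: 1.94 for miR-1249-3p, 1.14 for miR-1930-5p, 1.90 for miR-1934-5p, 2.07 for miR-1969, 2.25 for miR-1981-5p, 0.19 for miR-3068-5p, 1.55 for miR-6948-3p, 0.99 for miR-6958-3p and 0.11 for miR-8112. With the replicate block 7 did: 4.05 for miR-1249-3p, 3.59 for miR-1930-5p, 4.16 for miR-1934-5p, 1.32 for miR-1969, 5.16 for miR-1981-5p, 0.0025 for miR-3068-5p and 3.04 for miR-6948-3p. Total reads gave 0.36 for miR-3068-5p, and for miR-7043-3p upper-quartile factors gave -0.15 and miRBase names alone -0.071. The cause was not tested. Over the fits without 1 replicate, values ran from -1.45 to 7.81 for miR-1249-3p, -2.10 to 7.39 for miR-1930-5p, -1.44 to 7.85 for miR-1934-5p, -2.72 to 3.32 for miR-1969, -1.09 to 9.13 for miR-1981-5p, -0.46 to 0.24 for miR-3068-5p, -1.90 to 7.24 for miR-6948-3p and -0.33 to 8.32 for miR-7043-3p. Apart from those of miR-1969 and miR-3068-5p, these highest values come from fits with no Ctrl-sEV read left, so they depend on the prior count and bound no fold. Each Ctrl-sEV library was shallower than each Cis-sEV library, so a count of 0 sets a higher limit there.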
